A study of Mus musculus with 12 samples.

Results

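The comparison set mice labelled Nptx2 KO and kept in single housing, which carry both interventions of a 2 by 2 design, against wild-type mice kept in group housing, which carry neither. It took 6 of the 12 libraries of the study, 3 on each side, chosen by the genotype and housing in the sample labels. Of 13190 genes in the table, the 12716 with a log2 value of at least 1 in at least 3 of the 12 libraries were tested. All animals were C57BL/6 mice carrying PV-Cre k/+ and RiboTag k/k, so that Cre expressed from the parvalbumin locus puts a tag on the ribosomes of parvalbumin cells. Ribosome-associated RNA was pulled down from cortex through that tag and sequenced with a stranded mRNA kit. Housing began at weaning and lasted at least 4 weeks. Group-housed KO and single-housed wild type, 3 libraries each, carry 1 of the 2 interventions and are used below only to show where the combined group lay relative to them. Values are log2(FPKM + 1), where FPKM is a fragment count scaled for transcript length and for the library's total; a difference is single-housed KO minus group-housed wild type on that log2 scale, given ± its standard error from limma. The animal's age and sex stand in no label used here. Libraries are named by the 6-base barcode in their column names, and values are given first for AGTTCC, then for CCGTCC and last for GTCCGC in group-housed wild type, and first for CAGATC, then for CTTGTA and last for AGTCAA in single-housed KO.

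Parvalbumin interneurons are fast-spiking inhibitory cells that receive excitatory input through AMPA receptors, with GluA4, encoded by Gria4, as a characteristic subunit. Neuronal pentraxin 2, encoded by the activity-induced gene Nptx2, is secreted largely by excitatory neurons and clusters those receptors at their synapses onto parvalbumin cells. Isolation after weaning is used in rodents as a social stress, and a genetic change combined with a later stress is commonly called a 2-hit design.

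Before the comparison, the targeted gene was read in every library. Nptx2 lay at 2.62, 2.34 and 2.31 in group-housed wild type and at 2.68, 2.43 and 2.54 in single-housed KO. The groups overlapped, and the difference was 0.12 ± 0.12 (limma, unadjusted p = 0.328). The gene-level value does not show which exons the reads came from, and the labels do not say which part of Nptx2 the KO allele lacks, so Nptx2 did not check the genotype labels. KO below means the libraries labelled so. Values of Nptx2 at 2.37, 2.74 and 2.62 in group-housed KO and at 2.41, 2.41 and 2.23 in single-housed wild type lay in the same range.

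A Y-linked signal went largely with housing. Ddx3y, a Y-linked RNA helicase, was listed at 0 in all 6 group-housed libraries, in wild type and KO, and in CAGATC, but at 3.62 and 3.45 in CTTGTA and AGTCAA and at 3.21, 3.53 and 3.53 in single-housed wild type. Single against group housing in wild type therefore cannot be told apart from that signal. In the main comparison CTTGTA and AGTCAA held the signal, and CAGATC and the baseline libraries did not. Part of any combined difference therefore cannot be told apart from it either. Of 6 tested X- and Y-linked sex markers, 3 were higher and 2 lower at an unadjusted p under 0.05 in limma. Over all tested genes these shares were 2% and 2.07%. A mean over 40 tested genes of the ATF4 and amino acid response, each taken as its deviation from its mean over the 12 libraries, stood at 0.36 and 0.39 in CCGTCC and GTCCGC and at 0.34 and 0.43 in CTTGTA and AGTCAA, against -0.31 in AGTTCC and -0.32 in CAGATC. So each compared group held 2 libraries high on that list and 1 low. Pairs of libraries within a group correlated at 0.982 to 0.986 over genes, and pairs between the groups at 0.981 to 0.986. Pvalb, the marker of the tagged cells, was among the most abundant messages, at 9.96, 9.91 and 9.91 in group-housed wild type and 10.28, 9.65 and 9.85 in single-housed KO. Of 39 parvalbumin interneuron markers 38 were tested, and their summed FPKM was 7889 to 8303 in group-housed wild type and 7834 to 8409 in single-housed KO. Markers of other cells were present at lower sums, such as 12 tested excitatory neuron markers at 314 to 371 and 283 to 360, and 14 astrocyte markers at 307 to 321 and 299 to 332. These ranges overlapped between the groups, whereas the 1 tested choroid plexus marker stood at 42.9 to 69.1 and 35.2 to 37, and its part in any result was not tested.

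Carrying both interventions went with few changes that passed the test. Of the 12716 genes, 3 passed an adjusted p of 0.05 (Benjamini-Hochberg in limma), which is 0.0236%, and all 3 fell. The coiled-coil gene Ccdc71 fell by 2.04 ± 0.17 and the processed pseudogenes Hmgb1-ps1 and Gm12751 fell by 0.77 ± 0.09 and 0.60 ± 0.07. No gene rose past the threshold. At an unadjusted p under 0.05 there were 517 genes, 4.07% of those tested, with 254 higher and 263 lower, where a uniform spread of p-values would give 635.8. The median difference over all tested genes was -0.001, with 6294 higher and 6421 lower. The labels state 3 biological replicates per group, and 3 against 3 libraries cannot give an exact permutation p under 0.1, so the tests rest on the spread that limma shares across genes.

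Sequences of both pseudogenes are shown with those of the genes they were copied from, because near-identical letters limit what the counts can assign. Capitals mark the bases at which the 120-base windows differ. Each window was picked as a gap-free stretch of the parent's coding part with the most differences. Transcript sequences are those of GENCODE M21 on GRCm38.
Hmgb1, bases 255 to 374 of Hmgb1-201: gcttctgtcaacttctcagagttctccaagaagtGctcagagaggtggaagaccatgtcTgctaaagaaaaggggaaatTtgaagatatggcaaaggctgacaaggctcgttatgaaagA
Hmgb1-ps1, bases 100 to 219: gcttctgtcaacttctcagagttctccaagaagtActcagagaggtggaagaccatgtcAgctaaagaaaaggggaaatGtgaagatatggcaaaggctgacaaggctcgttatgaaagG
Polr1d, bases 323 to 442 of Polr1d-202: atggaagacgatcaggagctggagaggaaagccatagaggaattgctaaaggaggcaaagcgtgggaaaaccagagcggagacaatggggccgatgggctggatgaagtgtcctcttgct
Gm12751, bases 1 to 120: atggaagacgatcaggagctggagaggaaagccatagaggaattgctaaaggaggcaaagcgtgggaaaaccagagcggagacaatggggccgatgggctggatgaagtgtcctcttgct
Counted from 1 at the start of the window, Hmgb1-ps1 differs from Hmgb1 by G35A, T60A, T80G and A120G. Along its 634 bases the alignment to Hmgb1-201 had 619 identical bases, 10 mismatches and 3 gaps. That is 98.4% of the paired bases, with gaps left out. Gm12751 matched Polr1d-202 at all of its 381 bases. The windows for Polr1d and Gm12751 therefore carry no capital.

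Ccdc71 separated the combined group from every other. It lies at chr9:108460527-108465938 on the plus strand and its start overlaps Klhdc8b on the opposite strand. Its level was 3.92, 3.90 and 3.76 in group-housed wild type and 1.56, 2.32 and 1.59 in single-housed KO. All 3 single-housed KO libraries lay far below all group-housed wild-type libraries, and the adjusted p was 0.00247 in limma. Group-housed KO stood at 3.83, 3.81 and 3.94 and single-housed wild type at 3.94, 3.94 and 3.90, and both of these groups overlapped the baseline. The difference between the genotype effects in the 2 housing conditions was -2.10 ± 0.23 (limma interaction, adjusted p = 0.0485). That was 1 of the 12716 genes, 0.00786%, to pass for the interaction. Klhdc8b stood at 2.66, 2.85 and 2.78 against 3.09, 2.91 and 2.19, with overlapping groups and a difference of -0.04 ± 0.24. Among the 19 tested genes within 200 kb of Ccdc71, itself left out, 11 were higher and 8 lower, and the lowest adjusted p was 1. The largest of these differences was that of the glutathione peroxidase gene Gpx1, named here after its values were seen, at 3.57, 3.35 and 3.61 against 5.95, 5.70 and 3.48. Gpx1 thus sat at 2 separate levels, with AGTCAA at the baseline level, and the groups overlapped. The difference in Ccdc71 was -2.31 in CAGATC alone, the library without Ddx3y signal, and -1.91 in the other two.

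**Figure D1:**
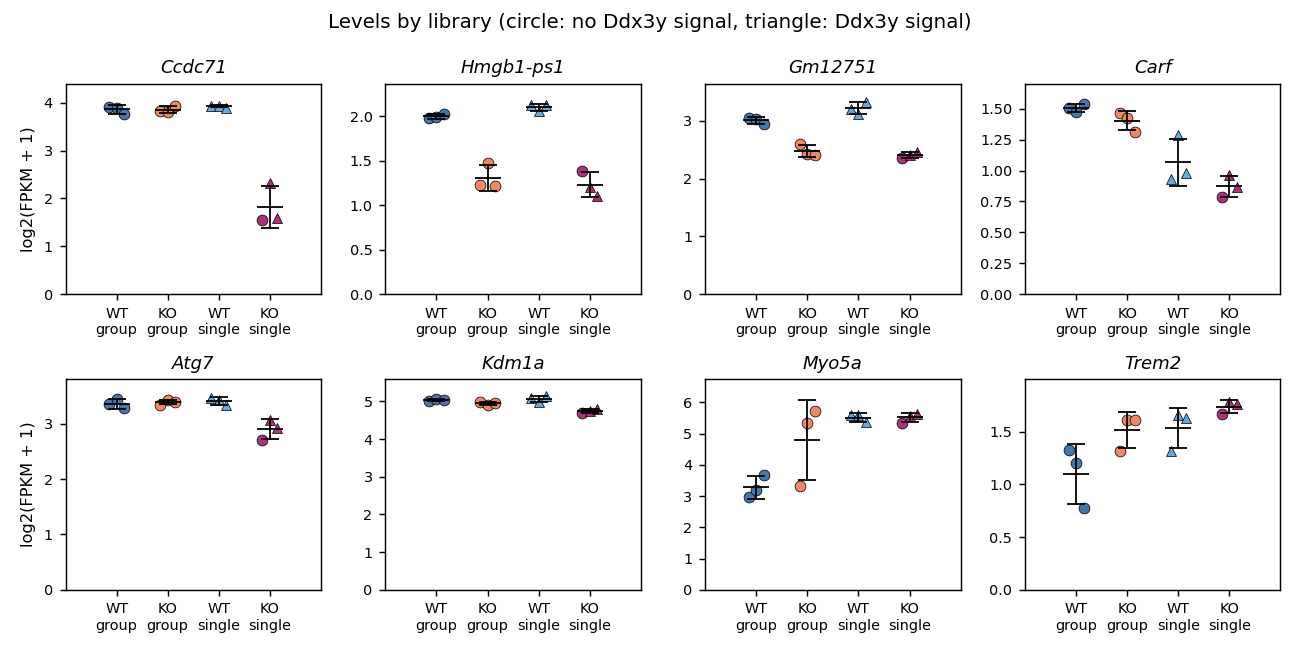
Levels of 8 genes in log2(FPKM + 1) on the vertical axis, by group on the horizontal axis; each point is 1 library (a triangle where Ddx3y had signal), and bars give the mean and SD of 3 libraries. Ccdc71 was low in the 3 single-housed KO libraries (1.56 to 2.32) and at 3.76 to 3.94 elsewhere, while Hmgb1-ps1 and Gm12751 were low in both KO groups.

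The pseudogenes followed the KO label in both housing conditions. Hmgb1-ps1, at chr11:41141763-41142396, is a copy of the gene for the chromatin protein HMGB1. It stood at 1.98, 1.99 and 2.03 in group-housed wild type and 1.38, 1.20 and 1.11 in single-housed KO, without overlap (limma, adjusted p = 0.0327). Group-housed KO lay at 1.23, 1.48 and 1.21 and single-housed wild type at 2.12, 2.06 and 2.12, so the low level was shared by both KO groups. Gm12751, at chr4:34354043-34354423, is a copy of the RNA polymerase subunit gene Polr1d. Its values were 3.05, 3.03 and 2.94 in group-housed wild type and 2.36, 2.41 and 2.46 in single-housed KO, again without overlap (limma, adjusted p = 0.0327). Values of 2.60, 2.43 and 2.40 in group-housed KO and of 3.20, 3.12 and 3.33 in single-housed wild type gave the same split by genotype label. Both parent genes lie on the chromosome of Nptx2, 4.49 Mb away for Hmgb1 and 2.52 Mb away for Polr1d, on chromosome 5. Hmgb1 itself was at 4.36, 4.38 and 4.54 against 4.05, 4.42 and 4.19, and Polr1d at 4.85, 4.98 and 5.03 against 4.83, 4.88 and 4.93, with overlapping groups for each. Reads of a parent and its copy can be assigned to either where the letters are the same, so the level of both pseudogenes is uncertain, and whether the parents' own sequence differs between the genotypes was not tested. Neither pseudogene kept its call in every alternative. With 1 library left out at a time the adjusted p in limma was 0.00877 to 0.135 for Hmgb1-ps1, under 0.05 without CAGATC only, and 0.0676 to 0.138 for Gm12751. Without the KO libraries that held Ddx3y signal, which leaves CAGATC alone with a spread taken from the other groups, the adjusted p in limma was 0.144 for Hmgb1-ps1 and 0.0799 for Gm12751, at differences of -0.62 and -0.65.

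Other genes near Nptx2 were read for the same reason. Within 5 Mb, 87 genes besides Nptx2 were tested, of which 43 were higher and 44 lower, and 0 were called by limma after adjustment. At an unadjusted p under 0.05 there were 6 lower and 3 higher, 10.3% of the 87, against 4.07% of all tested genes and 6.18% of the 858 on chromosome 5. The long noncoding RNA D130017N08Rik, 0.777 Mb away, stood at 3.55, 3.59 and 3.60 in group-housed wild type and 2.63, 3.08 and 2.50 in single-housed KO. These groups did not overlap, and the difference of -0.84 ± 0.13 missed the threshold (limma, adjusted p = 0.123). The call turned on CTTGTA, the highest of the KO libraries: without it the difference was -1.01 and the adjusted p in limma 0.00251, while leaving out any other compared library gave 0.262 to 0.387. In group-housed KO it was 2.70, 2.44 and 2.68, and in single-housed wild type 3.53, 3.57 and 3.57. Eif2ak1, encoding the heme-regulated kinase of the translation factor eIF2α and 0.642 Mb away, stood at 5.09, 5.15 and 5.12 against 4.71, 4.99 and 4.85. Both genes and Cpsf4, named after their values were seen, had group-housed KO levels nearer to single-housed KO than to either wild-type group. Cpsf4, a subunit of the polyadenylation complex, had means of 1.86 in group-housed wild type, 1.91 in single-housed wild type, 2.63 in group-housed KO and 2.52 in single-housed KO. How far flanking sequence carried along with the KO allele bears on these genes was not tested.

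**Figure D2:**
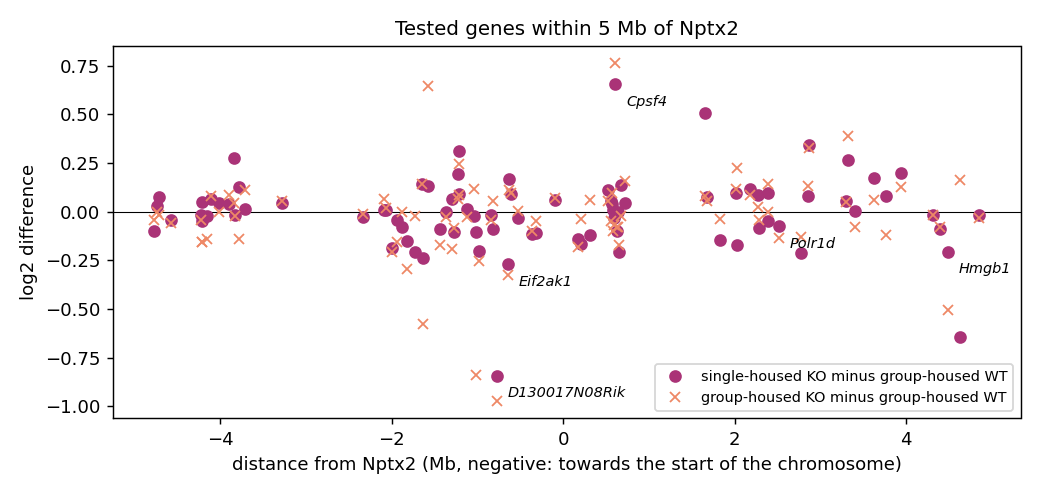
Log2 difference (vertical axis) of the tested genes within 5 Mb of Nptx2 against their distance from it in Mb (horizontal axis), for single-housed KO (circles) and group-housed KO (crosses), each minus the same group-housed wild-type libraries. D130017N08Rik stands lowest, at -0.84 in the combined comparison, and Cpsf4 highest, at 0.66.

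Among the other genes with the smallest p-values on the lower side, none passed the threshold, and they differed in how the single interventions stood. Carf, a transcription factor that binds calcium-response elements, was at 1.51, 1.47 and 1.54 against 0.79, 0.96 and 0.87. The groups did not overlap, and the difference was -0.64 ± 0.10 (limma, adjusted p = 0.123). Single-housed wild type, at 0.93, 1.29 and 0.98, reached into the combined group's range, and group-housed KO near the baseline at 1.46, 1.43 and 1.32. F3, encoding tissue factor, was at 1.78, 1.61 and 1.64 against 1.26, 1.14 and 1.26, a difference of -0.45 ± 0.08 (limma, adjusted p = 0.224). Both single-intervention means, 1.39 and 1.32, stood between the compared groups. Dopey1, a membrane trafficking gene, was at 3.98, 3.86 and 3.97 against 3.40, 3.26 and 3.60, and its single-intervention means of 3.65 and 3.70 also lay between.

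Kdm1a and Atg7, which missed the threshold, had their lowest 3 values in the combined group, as Ccdc71 did. Kdm1a, a histone demethylase, stood at 5.02, 5.07 and 5.04 against 4.70, 4.75 and 4.80, with the other 6 libraries at 4.91 to 5.13. The groups did not overlap, and the difference was -0.29 ± 0.05 (limma, adjusted p = 0.235). Atg7, the enzyme that activates both ubiquitin-like conjugation systems of autophagy, stood at 3.35, 3.44 and 3.27 against 2.71, 3.06 and 2.92, with the other 6 libraries at 3.33 to 3.46. Its difference was -0.46 ± 0.09 (limma, adjusted p = 0.372), and its interaction of -0.54 ± 0.12 had an adjusted p of 0.597. In CAGATC alone, the KO library without Ddx3y signal, the difference was -0.65, a value of 1 library. Autophagy genes as a list did not share a direction: of 33 tested 19 were lower and 14 higher, with a median of -0.01. Of all tested genes 50.5% were lower. Of the 33, 6 lay wholly below the baseline group and 4 wholly above, beside 5.14% and 4.6% of all tested genes. Atg7 and Map1lc3b, at -0.15 ± 0.05, were lower at an unadjusted p under 0.05 in limma. Summed FPKM of the list was 1651 to 1682 in group-housed wild type and 1708 to 1785 in single-housed KO.

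No gene on the higher side passed the threshold, and among the leading ones Myo5a had mixed levels within group-housed KO. Myo5a, the motor myosin Va that carries vesicles and RNA granules along actin, was at 2.96, 3.19 and 3.67 against 5.35, 5.55 and 5.64. These groups lay far apart, yet the difference of 2.24 ± 0.49 had an adjusted p of 0.671 in limma. Group-housed KO held 1 library at 3.32 beside 5.33 and 5.72, and single-housed wild type was at 5.60, 5.58 and 5.36, so 3.32 was the only level under 5 outside the baseline group. Trem2, a receptor of microglia, was at 1.32, 1.20 and 0.78 against 1.67, 1.78 and 1.76, a difference of 0.64 ± 0.15 (limma, adjusted p = 0.896). Gal3st1, the sulfotransferase of sulfatide synthesis, was at 2.38, 2.28 and 2.39 against 2.71, 2.59 and 2.64, a difference of 0.30 ± 0.06 (limma, adjusted p = 0.419). Gar1, Glt1d1, Mrpl48, C1qtnf5 and Cntln, the next in order, did not overlap between the groups and differed by 0.26, 0.22, 0.65, 0.78 and 0.30, each at an adjusted p of 0.958 in limma. Groups that do not overlap were common: 585 genes, 4.6% of those tested, lay wholly higher and 654, 5.14%, wholly lower.

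**Figure D3:**
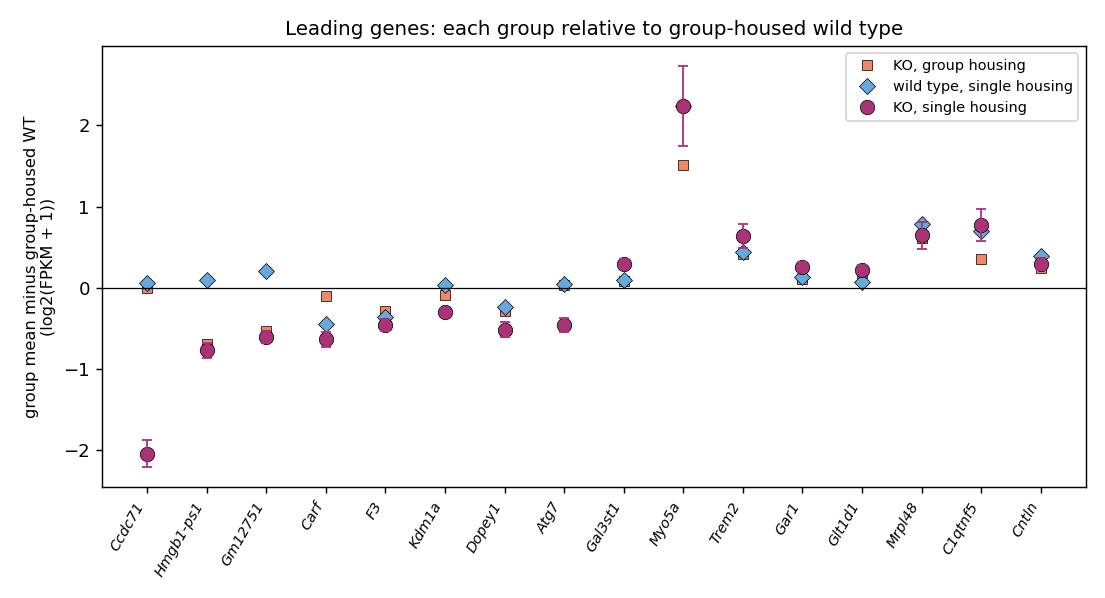
Group means relative to group-housed wild type in log2(FPKM + 1) (vertical axis) for 16 leading genes (horizontal axis), with the standard error of the combined difference as bars. Ccdc71, Kdm1a and Atg7 have both single-intervention means near 0, the pseudogenes have group-housed KO beside the combined group, and F3 and Dopey1 have both means between.

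Across the 517 genes with an unadjusted p under 0.05, 416 had both single-intervention means on the same side of the baseline as the combined group, and in 253 both means lay between the baseline and the combined group. An interaction at an unadjusted p under 0.05 was found for 76 of the 517, against 981 of all 12716, or 7.71%. All 4 groups enter these counts with the same baseline libraries, so a high or low baseline moves all 3 differences together, and nothing is read from the counts.

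Some genes sat at 2 separate levels, among the compared libraries and also within group-housed KO, as Itgbl1 did. Those that follow were named after their values were seen, apart from Pik3cb and Kcns3. Itgbl1, an integrin beta-like extracellular protein, was at 1.59, 1.47 and 1.68 against 0.09, 0.12 and 0.08, with group-housed KO at 0.12, 1.51 and 1.29. Its difference of -1.49 ± 0.28 missed the threshold (limma, adjusted p = 0.372), while the spread of the compared groups alone gave an adjusted p of 0.00743. A530032D15Rik was at 1.09, 1.22 and 0.70 in group-housed wild type, at 0.10 in CAGATC and listed at 0 in CTTGTA and AGTCAA and in all single-housed wild-type libraries (limma, adjusted p = 0.0622, or 0.00674 without GTCCGC). Pik3cb, the p110β catalytic subunit of PI3-kinase, was at 2.74, 1.87 and 2.65 against 1.60, 1.71 and 1.73, and at 1.79, 1.57 and 1.75 in single-housed wild type. Its levels in group-housed KO, 2.70, 2.72 and 2.69, lay with the upper baseline libraries, so low Pik3cb went with single housing in both genotypes and with CCGTCC to a lesser degree. Its difference was -0.74 ± 0.18 (limma, adjusted p = 0.958), and -1.01 without CCGTCC (limma, adjusted p = 0.0046). Kcns3, a modulatory potassium channel subunit enriched in parvalbumin cells, stood at 4.99, 4.89 and 5.01 against 4.93, 1.65 and 2.28, and the 2 low libraries were those with Ddx3y signal and a high ATF4 list. Whether these levels follow from how reads were shared among transcripts was not tested.

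Genes induced by neuronal activity made up the list with the lowest median among those with at least 3 tested members. Immediate early transcription factors are switched on within minutes of calcium entry, without new protein synthesis, and turn on effector genes that act at synapses. Of 24 tested, 18 were lower and 6 higher, with a median of -0.21 against -0.001 over all genes; 9 were lower at an unadjusted p under 0.05, 6 lay wholly below the baseline group, and 0 passed adjustment in limma. Of all tested genes, 2.07% were lower at that unadjusted p and 5.14% lay wholly below. In bulk RNA, fewer expressing cells and less RNA per cell cannot be told apart.

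Fos, the partner of Jun in the AP-1 factor, was at 3.42, 4.04 and 3.75 in group-housed wild type and 2.80, 3.12 and 2.73 in single-housed KO. All KO values lay below the baseline, with a difference of -0.85 ± 0.23 (limma, adjusted p = 0.993). Single-housed wild type was lower still, at 1.89, 1.85 and 1.76, and group-housed KO spread from 2.64 to 3.62. Egr1, a zinc-finger factor used as a marker of recent activity, was at 3.71, 4.47 and 4.17 against 3.39, 3.43 and 3.18, a difference of -0.79 ± 0.21 (limma, adjusted p = 0.958). Here too single-housed wild type lay lowest, at 2.46, 2.31 and 2.36. Side by side, and sharing the same baseline libraries, single housing in wild type gave differences of -1.91 ± 0.23 for Fos and -1.74 ± 0.21 for Egr1, both past the threshold at an adjusted p of 0.0225 in limma, in a comparison where 5 genes, 0.0393%, passed and 4 of them, 0.0315%, were lower. All 3 single-housed wild-type libraries held Ddx3y signal and all 3 baseline libraries did not, so housing and that signal cannot be told apart in these values. The interaction terms of 1.70 ± 0.32 for Fos and 1.69 ± 0.29 for Egr1 had adjusted p-values of 0.471 and 0.295 in limma, so a departure of the combined group from the sum of the single differences was not shown at the threshold.

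Npas4, a factor that responds to calcium entry and regulates inhibitory synapses, was at 1.10, 1.40 and 1.04 against 0.67, 0.37 and 0.74, and Egr4, another zinc-finger factor, at 2.53, 3.04 and 2.62 against 2.24, 2.23 and 2.01. Neither pair of groups overlapped, and the differences were -0.58 ± 0.14 and -0.57 ± 0.16. For both, single-housed wild type was at or below the combined group, at 0.32 to 0.53 for Npas4 and 1.73 to 2.16 for Egr4. Btg2, an antiproliferative cofactor, and Junb, a partner of Fos, also lay wholly below the baseline, with differences of -0.73 ± 0.21 and -0.69 ± 0.24. The nuclear receptor gene Nr4a1 was at 2.83, 3.82 and 3.48 against 2.87, 2.12 and 2.03, so that CAGATC overlapped the baseline. Among the baseline libraries CCGTCC was the highest for Fos, Egr1, Npas4, Egr4, Btg2, Junb and Nr4a1, and it is 1 of the 2 with a high ATF4 list. Between the pair of libraries low on that list, AGTTCC and CAGATC, 1 library against 1, the Egr1 difference was -0.33, and between the 4 high ones it was -1.02. AGTTCC and CAGATC both lacked Ddx3y signal, whereas among the 4 high libraries only the KO ones, CTTGTA and AGTCAA, held it. The ATF4 list and a mismatch in Ddx3y signal therefore cannot be told apart in these 2 values. The list's median was -0.19 for group-housed KO and -0.49 for single-housed wild type against the same baseline.

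**Figure D4:**
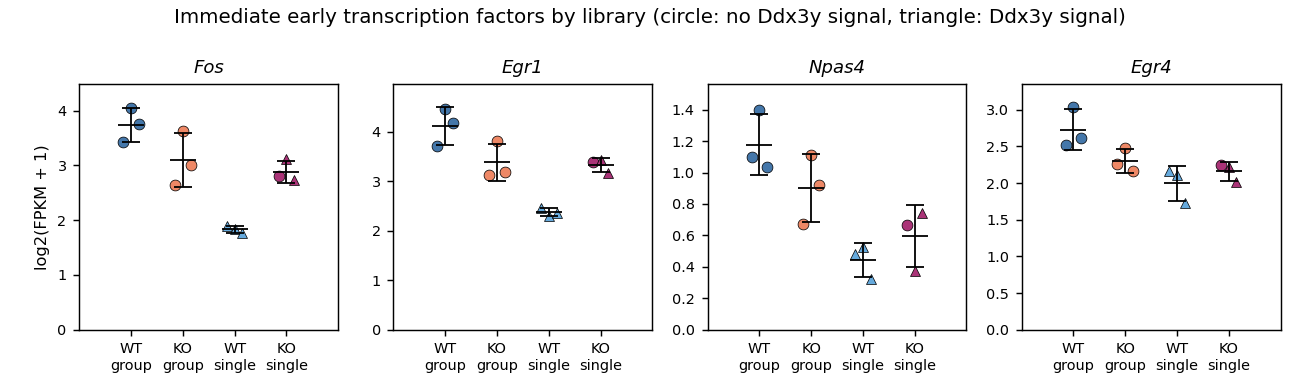
Levels of 4 immediate early transcription factors in log2(FPKM + 1) (vertical axis) by group (horizontal axis); each point is 1 library (a triangle where Ddx3y had signal), and bars give the mean and SD of 3 libraries. The single-housed KO libraries lay below group-housed wild type for all 4 genes, and single-housed wild type was lowest for Fos and Egr1.

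The promoters of 3 of these factors are shown because their genes were low together, as 300 bases around the gene start from RefSeq on GRCm38.p6, printed along the gene's strand. Capitals mark TGACG or its reverse complement CGTCA, the core of the cyclic AMP response element, a motif chosen after the data were seen.
Fos, chr12:85473640-85473939, plus strand: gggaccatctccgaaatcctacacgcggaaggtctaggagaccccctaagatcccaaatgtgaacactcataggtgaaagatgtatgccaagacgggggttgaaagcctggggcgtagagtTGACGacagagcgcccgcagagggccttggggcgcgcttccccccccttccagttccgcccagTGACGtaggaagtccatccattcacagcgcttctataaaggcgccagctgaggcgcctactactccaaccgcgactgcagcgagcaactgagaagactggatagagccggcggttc
Npas4, chr19:4989922-4990221, minus strand: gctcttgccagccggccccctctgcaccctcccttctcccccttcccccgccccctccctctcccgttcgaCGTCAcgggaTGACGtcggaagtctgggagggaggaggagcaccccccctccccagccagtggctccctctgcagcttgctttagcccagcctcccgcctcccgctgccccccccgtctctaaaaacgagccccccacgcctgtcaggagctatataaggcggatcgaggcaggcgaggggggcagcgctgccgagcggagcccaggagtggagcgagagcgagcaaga
Egr4, chr6:85513540-85513839, minus strand: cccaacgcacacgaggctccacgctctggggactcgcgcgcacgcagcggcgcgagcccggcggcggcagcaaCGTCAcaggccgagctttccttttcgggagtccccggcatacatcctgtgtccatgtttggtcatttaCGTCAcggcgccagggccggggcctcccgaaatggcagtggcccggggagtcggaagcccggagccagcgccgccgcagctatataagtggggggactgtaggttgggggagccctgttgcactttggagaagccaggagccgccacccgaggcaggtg
The core motif, searched on both strands, was in 12 of the 18 listed factors with a promoter, 66.7%, and in 3281 of the 8792 tested genes with one, 37.3%. The full palindrome TGACGTCA, which contains the core on either strand, was in 1 of the 18, and in 3.87% of the 8792. Among the genes lower at an unadjusted p under 0.05, 33.2% of 184 held the core motif. Other motifs were searched too. The AP-1 motif TGANTCA was in 0 of the 18, and in 5.48% of the 8792. For the heat shock element GAANNTTC these were 2 and 6.77%, and for the C/EBP-ATF element TTGCATCA 1 and 0.648%. The windows for Ccdc71 held none of these motifs. These are matches of letters in a fixed window and do not show binding.

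Among 26 tested activity-induced effectors, 20 were lower and 6 higher, with a median of -0.09. Adjustment in limma was passed by 0, against 3, all lower, at an unadjusted p under 0.05. Against the same baseline the median was -0.08 for group-housed KO and -0.24 for single-housed wild type. Whether the effectors followed from the factors was not tested. Of all tested genes 50.5% were lower, and 2.07% were lower at that unadjusted p. Rgs4, which shortens G-protein signalling, was at 5.96, 5.81 and 5.79 against 5.67, 5.70 and 5.70, without overlap and with a difference of -0.16 ± 0.05. Trib1, a pseudokinase, and Dusp6, a phosphatase of ERK, differed by -0.24 ± 0.10 and -0.16 ± 0.07, with overlapping groups. Arc, whose protein drives AMPA receptor endocytosis, was at 3.27, 4.40 and 3.73 against 3.58, 1.34 and 2.61, so the combined libraries ranged from within the baseline to far below it. Mir212, a row for the gene of a microRNA induced through the cyclic AMP response element binding protein, named after its values were seen, was at 1.36, 0.82 and 1.09 against 0.41, 0.23 and 0.18. Those groups did not overlap, and the difference of -0.82 ± 0.21 had an adjusted p of 0.958 in limma. The noncoding transcript 1700016P03Rik overlaps Mir212 on the same strand, so the value does not show which of them the reads came from. The mature forms of Mir212 show what the gene encodes, with the seed at bases 2 to 8 in capitals and sequence from RefSeq on GRCm38.p6. The deposited value is of the gene and not of either mature form.
mmu-miR-212-5p: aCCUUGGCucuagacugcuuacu
mmu-miR-212-3p: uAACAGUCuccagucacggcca

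Receptor genes that the Nptx2 product acts on differed little. Of 25 tested pentraxin, AMPA receptor and auxiliary subunit genes, 13 were higher and 12 lower with a median of 0.001, and 0 passed adjustment in limma against 2 at an unadjusted p under 0.05. Of all tested genes 4.07% were under that unadjusted p. Gria4 was at 5.92, 5.95 and 5.97 against 5.78, 5.80 and 5.82. The groups lay close but apart, with a difference of -0.15 ± 0.05 (limma, unadjusted p = 0.0115, adjusted p = 1). Gsg1l, an auxiliary subunit that slows recovery of AMPA receptors, was at 4.21, 4.27 and 4.26 against 4.37, 4.40 and 4.38, a difference of 0.13 ± 0.06. The other pentraxins Nptx1 and Nptxr differed by -0.14 ± 0.10 and -0.03 ± 0.07. Pvalb differed by -0.001 ± 0.13, with combined libraries on both sides of the baseline.

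Genes of parvalbumin cell function had few members under the unadjusted threshold. Of 38 tested markers 25 were lower and 13 higher, with a median of -0.01, where 50.5% of all tested genes were lower. In that list 0 members passed adjustment in limma and 1 was lower at an unadjusted p under 0.05, against 2.07% of all tested genes. The potassium channel gene Kcna1, which limits repetitive firing near the axon's start, was at 3.05, 3.33 and 3.32 against 2.83, 2.91 and 2.95, without overlap and at -0.34 ± 0.12 (limma, unadjusted p = 0.0219, adjusted p = 1). Syt2, the fast calcium sensor for release at these cells' terminals, was at 7.75, 5.84 and 7.77 against 6.54, 5.82 and 6.15, so the baseline library CCGTCC lay with the combined group; without it the difference of -0.95 became -1.59 (limma, adjusted p = 0.0354). Of 24 tested genes of GABA synthesis, transport and receptors 20 were lower, with a median of -0.03. The receptor subunit gene Gabrb2 and the chloride exporter gene Slc12a5 both lay wholly below the baseline, at differences of -0.27 ± 0.13 and -0.19 ± 0.09. In this list 0 members passed an unadjusted p of 0.05 or adjustment in limma.

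Chaperone and protein turnover lists lay on opposite sides of 0. Cytosolic heat shock proteins, which fold new and damaged proteins, were lower for 20 of 24 tested genes, with a median of -0.11. Hspa8, the constitutive HSP70, was at 10.31, 10.48 and 10.17 against 9.46, 9.75 and 10.31, and Cryab, a small heat shock protein, at 3.53, 3.34 and 3.30 against 2.55, 3.04 and 3.38. For both, AGTCAA lay in the baseline range and CAGATC lowest. Hspa4l, a nucleotide exchange factor of HSP70, lay wholly below at -0.18 ± 0.06 (limma, unadjusted p = 0.0141). Proteasome subunits were higher for 26 of 35 tested genes, with a median of 0.03, and Psma7, a core particle subunit, was at 6.67, 6.52 and 6.52 against 6.89, 6.62 and 6.71. These groups overlapped, and the Psma7 difference of 0.17 ± 0.07 was 0.099 without CAGATC and up to 0.23 with another library left out. Cytosolic ribosomal proteins were higher for 65 of 82, with a median of 0.05, against which Rplp0 of the ribosomal stalk lay wholly below the baseline at -0.25 ± 0.12. The mean of the ribosomal list per library, taken as for the ATF4 list, was 0.124, -0.019 and 0.038 in single-housed KO. In group-housed wild type it was -0.006, -0.010 and 0.033. CAGATC was thus highest, and CTTGTA lay below the baseline libraries. Against the same baseline, group-housed KO had medians of -0.08 for heat shock, 0.008 for proteasome and -0.03 for ribosomal proteins. In single-housed wild type, where all 3 libraries held Ddx3y signal, they were -0.18, 0.07 and -0.02. The heat shock and proteasome medians thus lay further from 0 there than in the combined group. In each of these 3 lists 0 members passed adjustment in limma, against 2, 2 and 0 at an unadjusted p under 0.05, and the counts stand beside 49.5% of all tested genes higher and 50.5% lower. At that unadjusted p stood 4.07% of all tested genes.

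**Figure D5:**
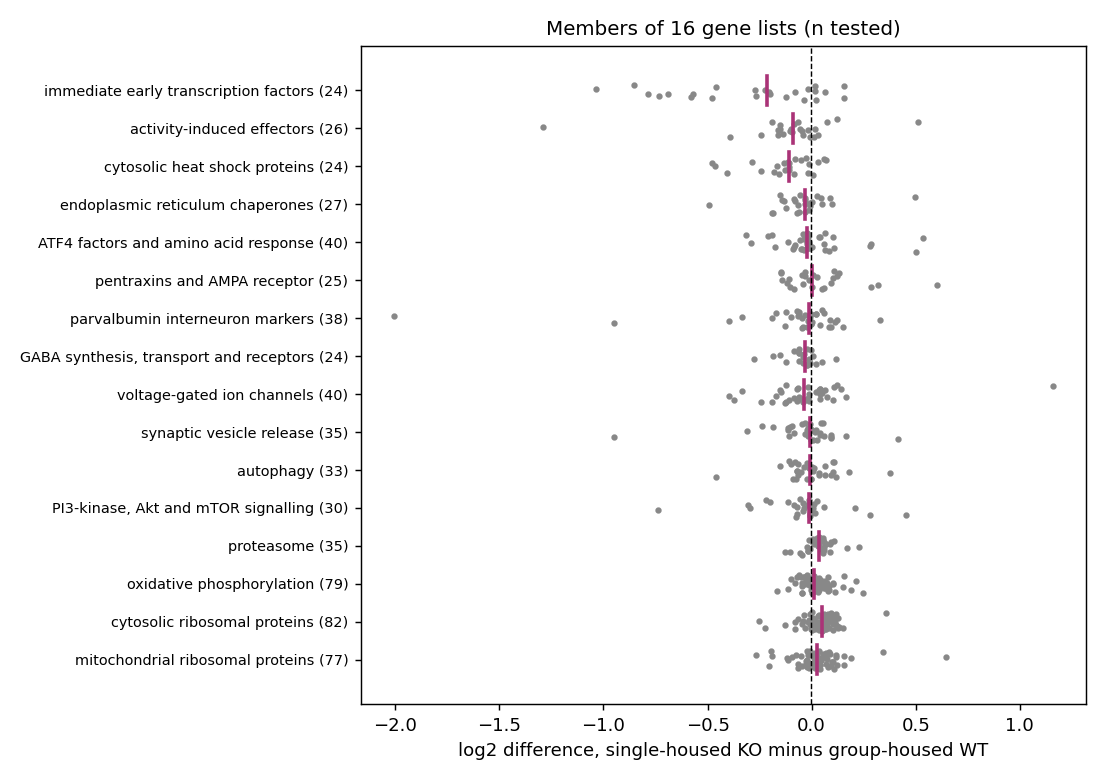
Log2 difference (horizontal axis) of each tested member (points) of 16 gene lists (vertical axis, with the number tested), with list medians as bars and the median of all tested genes as a dashed line. The immediate early list has the lowest median, -0.21, and the cytosolic ribosomal proteins the highest, 0.05.

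Genes linked to schizophrenia and markers of microglia were read last. Of 10 genes implicated in schizophrenia by rare coding variants in people, 9 were lower, with a median of -0.08, where 50.5% of all tested genes were lower. In that list 0 members passed adjustment in limma, against 1 lower at an unadjusted p under 0.05, beside 2.07% of all tested genes. The list's mean per library, taken as for the ATF4 list, was 0.17, 0.07 and -0.03 in group-housed wild type. In single-housed KO it was -0.02, -0.03 and 0.04, so the groups overlapped. In the microglial list, beside Trem2, 7 of 14 tested markers were higher and 7 lower. Cd68, a lysosomal protein, was at 1.42, 1.05 and 1.32 against 1.58, 1.41 and 1.64, and C1qa, a complement subunit, at 3.23, 3.08 and 3.12 against 2.88, 2.91 and 2.99. Their differences of 0.28 ± 0.13 and -0.22 ± 0.09 had opposite signs, and the summed FPKM of the list was 54 to 68.4 in group-housed wild type and 55.5 to 65.4 in single-housed KO.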

How the data were processed

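The authors deposited log2(FPKM + 1) values per gene and library, with a pseudocount of 1. Per the submitters' processing notes, the authors used HISAT2, StringTie and limma with build GRCm38; no versions are given in the sources used here. Repeating quantile normalization moved no deposited value by more than 0.00883, so the values were already quantile normalized, which removes differences in overall distribution between libraries. Depth is unknown, so no counting interval could be given. Columns carry a barcode and group but no replicate number.

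A mean per group was fitted with limma 3.58.1 in R 4.3.3 (with a trend of variance on level; 8 residual degrees of freedom and 2.18 from the prior) over all 12 libraries, with Benjamini-Hochberg adjustment over 12716 genes per comparison and a threshold of 0.05. The pseudocount understates changes of low genes. The code was tested on simulated data. GENCODE M21 matched 12668 of the tested genes and not the other 48. Named genes were 5 fixed ones, all past the threshold, those of smallest p (8 per direction, without Gm, Rik or -ps names) and up to 4 per list; others are said to be chosen after their values were seen. Members and lists were chosen with earlier results of these data known. Alternatives covered the fit, filter, pseudocount, centring, library weights, the Y-linked signal, the ATF4 list and each library left out.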

Additional observations from a re-analysis of the deposited data

Results flagged for a closer look

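Ccdc71 was picked out because its genotype difference in single housing and that in group housing differed by the test of the difference itself, -2.10 ± 0.23 on the log2 scale (limma, adjusted p = 0.0485). KO minus wild type was -2.10 ± 0.17 in single housing and -0.002 ± 0.17 in group housing, and all 3 single-housed KO libraries lay below all 9 others. All 3 single-housed wild-type libraries and 2 of the 3 single-housed KO libraries held Ddx3y signal, and no group-housed library did; its part in the difference was not tested.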

How the results depend on the processing

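The alternatives reran the combined difference only, so how the Ccdc71 interaction depends on them was not tested. For the combined difference, Ccdc71 stayed past the threshold in every alternative run but the fit to the 6 compared libraries only, where its adjusted p was 0.0722 in limma and Hmgb1-ps1 and Gm12751 had 0.116 and 0.072. That fit called 8 genes, 4 of them higher, and 0 of the 3 called above. A term for Y-linked signal, with the same calls as CAGATC alone against the baseline, called 19 genes, 4 higher and 15 lower, and kept 1 of the 3; its KO arm is 1 library with no replicate, and the other groups supply the spread. Y-linked term and ATF4 score together called 19, 5 higher and 14 lower. Using only the 4 compared libraries high on the ATF4 list, an alternative chosen after seeing the data, called 12, 7 higher and 5 lower, and kept 2. Those 12 included the Y-linked Eif2s3y and Ddx3y, at 3.23 and 3.54, and the X-linked Eif2s3x, at -0.69. Both KO libraries of that run held Ddx3y signal and both wild-type libraries did not. The cause of the changed calls was not tested. Leaving out 1 library at a time gave 2 to 6 calls, with 0 to 3 higher and 1 to 4 lower: without AGTTCC 3 were higher and 1 lower, and without CAGATC there were 6. Eif2s3y, Ddx3y and Eif2s3x were among those 6, and both KO libraries left in that run held Ddx3y signal. The ATF4 score alone left 2 calls, and other filters, pseudocounts, centring, weights and variance settings left 3 or 4 with the same 3 genes among them. Genes named with small differences changed sign: Pvalb was 0.35 with the Y-linked term and 0.33 with both terms, and -0.18 to 0.14 without 1 library; Klhdc8b was 0.33, 0.28 and -0.22 to 0.23; and Nptxr was -0.076 to 0.018 without 1 library. No paired analysis was possible because the columns carry no replicate numbers. Depth is unknown, so what depth limits could not be stated.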
